A study of Mus musculus with 2 samples.

Results

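The 10 genes described here encode subunits of the Polycomb repressive complexes: Ezh1, Ezh2, Eed, Suz12, Jarid2, Rbbp4, Rbbp7, Mtf2, Bmi1 and Cbx7. They were chosen by name, not by level, and matched by gene name to the larger of 2 deposited gene tables, where all 10 were found among 55536 annotated genes. Inflammation-experienced regulatory T cells of adult male mouse origin, aged 6 months and of the strain Foxp3CreERT2 x Rosa26YFP, gave polyadenylated RNA for sequencing. In this strain the Foxp3 gene, which is switched on in regulatory T cells, drives a tamoxifen-activated Cre recombinase, and a YFP reporter sits at the Rosa26 locus. The labels trace the primary cells to a bone marrow hematopoietic cell; the sources used here do not give how the inflammation was brought about or how the cells were sorted, nor whether they came from 1 mouse or a pool. All cells belonged to 1 group and 1 biological replicate, from which 2 technical libraries were made, so every SD below measures the libraries and says nothing of how animals differ, and no comparison with unstimulated or conventional T cells was made.

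Polycomb proteins keep genes silent by marking the histones around them. Polycomb repressive complex 2 (PRC2) methylates histone H3 at lysine 27 through Ezh1 or Ezh2, its alternative catalytic subunits, which work only when bound to Eed and Suz12 and are joined by the histone-binding proteins Rbbp4 or Rbbp7. Polycomb repressive complex 1 (PRC1) ubiquitinates histone H2A through Ring1 or Rnf2 together with a Pcgf protein such as Bmi1, and its canonical forms read the PRC2 mark through a Cbx protein such as Cbx7. Ezh2 is known as the form of dividing and activated cells and Ezh1 as the form that persists in resting cells. In regulatory T cells Ezh2 is needed for stable Foxp3-dependent identity after activation, and genes bound by Foxp3 have been described as gaining the PRC2 mark during inflammation.

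The libraries held 15386113 and 13604480 gene counts (technical replicates 1 and 2), so that 3 counts, the most that a count of 0 allows, equalled 0.195 and 0.221 CPM, that is, counts scaled to the library size. The T cell label was met by 6 of 6 T cell markers at 242 to 2998 TPM (a level per transcript length, scaled to a fixed sum over each library) and by 5 of 5 regulatory T cell markers, among which Foxp3 had 22.05 and 17.9 TPM in technical replicates 1 and 2. Markers of B cells (0 of 3), natural killer cells (0 of 2), monocytes and macrophages (0 of 4) and neutrophils (0 of 3) did not reach 1 TPM in both libraries. Low levels of CD8 T cell markers (2 of 2, 2.44 and 11.2 TPM) and red cell markers (3 of 3, 2.66 to 7.74 TPM) were measured; their part in the Polycomb values was not tested. All 5 cycling-cell markers were detected at 5.60 to 22.8 TPM, with a summed level of 59.7 TPM in technical replicate 1, against 40.4 TPM in technical replicate 2. In RNA from a population of cells, a smaller share of cells expressing a gene and less RNA per cell cannot be told apart.

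All 10 Polycomb genes were detected, defined as 1 TPM or more in both libraries, whereas 24.3% of all annotated genes and 46.7% of protein-coding genes were. Their mean levels ran from 12.9 TPM for Bmi1 to 253 TPM for Rbbp4, with a median of 39.1 TPM, beside a median of 13.4 TPM over all detected genes and 18.3 TPM over detected protein-coding genes. The order by mean TPM was Rbbp4, Rbbp7, Eed, Ezh1, Mtf2, Jarid2, Cbx7, Ezh2, Suz12 and Bmi1. Ezh1 and Mtf2, Mtf2 and Jarid2, Jarid2 and Cbx7, and Jarid2 and Ezh2 overlapped in their values over the libraries, so the order within these pairs was not separated from technical variation. No other pair of the 10 genes overlapped in TPM over all transcripts. The order was not the same with protein-coding transcripts alone. There Eed (35.5 and 37.4 TPM) and Ezh1 (35.1 and 36.8 TPM) overlapped. Ezh2 (12.3 and 16.3 TPM) then lay below Suz12 (17.5 and 16.6 TPM) in both libraries. Ezh2 then also overlapped Bmi1 (13.1 and 12.27 TPM), and was the lower of these in technical replicate 1. Among detected protein-coding genes, Rbbp4 stood at the 95.7th percentile, Ezh1 at the 73.5th and Ezh2 at the 64.6th. Since there was a single condition, genes with a like pattern across conditions could not be named.

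**Figure D1:**
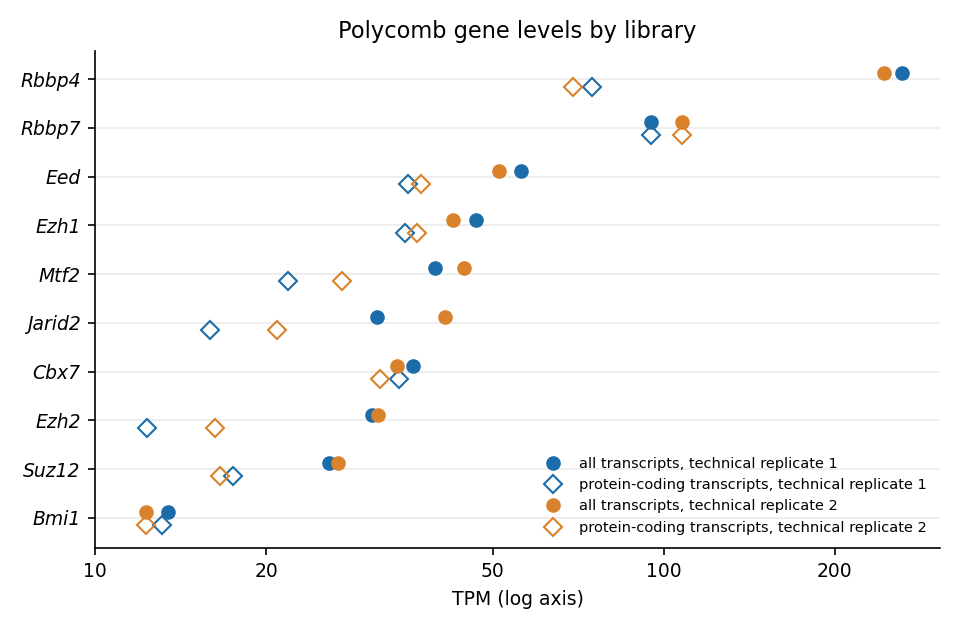
Level of the 10 Polycomb genes in TPM (log axis) in technical replicate 1 (blue) and technical replicate 2 (orange), for all transcripts (filled circles) and for protein-coding transcripts alone (open diamonds). Rbbp4 is highest at 262 and 244 TPM over all transcripts but lies below Rbbp7 when protein-coding transcripts alone are counted.

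Of the alternative catalytic subunits, Ezh1 (ENSMUSG00000006920.14, mm10 chr11:101191115-101226463, minus strand) was the higher in TPM. Its level was 46.7 TPM in the library of technical replicate 1 and 42.6 TPM in that of technical replicate 2. Ezh2 (ENSMUSG00000029687.16, mm10 chr6:47530139-47595341, minus strand) had 30.7 and 31.4 TPM in the same libraries. Both Ezh1 values lay above both Ezh2 values. Ezh1 averaged 44.6 ± 2.92 TPM and Ezh2 31.1 ± 0.49 TPM (SD, n = 2 technical libraries), a ratio of Ezh1 over Ezh2 of 1.52 and 1.36, with a mean of 1.44 ± 0.117. The credibility bounds of the posterior mean TPM, which the authors deposited without a level given in the sources used here, were 40.1 to 46.3 and 36.4 to 41.8 TPM for Ezh1 and 25.8 to 35.8 and 25.4 to 35.7 TPM for Ezh2, and did not overlap within either library. No p-value is given, because 2 technical libraries of 1 biological replicate leave no test of this difference between animals.

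In estimated counts, which are not divided by length, Ezh1 stood further above Ezh2. Ezh1 had 1890 and 1711 estimated counts and Ezh2 had 534.8 and 531.3 in technical replicates 1 and 2. Ezh1 thus took 77.9% of the counts of the pair in technical replicate 1 (95% Clopper-Pearson interval, 76.2% to 79.6%). Its share in technical replicate 2 was 76.3% (74.5% to 78.1%). These intervals reflect counting error alone and leave out error in the assignment of reads. They also take each count as a separate molecule, although PCR copies of a molecule could not be recognised. In the step from counts to TPM, each transcript is divided by its own length and the gene is the sum over its transcripts. The effective length of a gene is the mean over its transcripts weighted by their TPM. This effective length was 3258 and 3662 nt for Ezh1 but 1402 and 1542 nt for Ezh2.

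A short transcript that entered this length of Ezh2 was Ezh2-213, an annotated retained-intron transcript of 500 nt with 3 exons (mm10 chr6:47530319-47532116, minus strand). It took 41.7% of the Ezh2 TPM in technical replicate 1 and 29.1% in technical replicate 2, from 71.7 and 45.2 estimated counts, which were 13.4% and 8.51% of the gene's counts. Ezh2-201, the full-length protein-coding transcript of 2787 nt, led by counts with 293 and 350 estimated counts, or 54.8% and 65.9% of the gene's counts, but held 28.1% and 37.1% of the TPM. Ezh2-202, another protein-coding transcript, held 7.33% ± 3.79 of the TPM and 10.5% ± 6.02 of the counts over the libraries. The leading coding transcripts also differ in length, 2787 nt for Ezh2-201 and 4207 nt for Ezh1-202. The part of each transcript in the shorter effective length of Ezh2 was not tested. Of the 500 bases of Ezh2-213, 449 also lie in exons of protein-coding Ezh2 transcripts and 51 do not, and of its 451 windows of 50 nt 50 occur in no other Ezh2 transcript. Its first 111 bases (mm10 chr6:47532006-47532116, minus strand) are shown because they hold the border between intron and exon, with the bases outside protein-coding exons in lower case and the coding exon bases in capitals.
Ezh2-213: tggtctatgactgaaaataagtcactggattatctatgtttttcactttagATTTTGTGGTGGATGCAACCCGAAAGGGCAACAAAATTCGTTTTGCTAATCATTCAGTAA

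Ezh1 was assigned mainly to its protein-coding transcript Ezh1-202 of 4207 nt, which held 65.5% and 82.1% of the gene's TPM and 83.6% and 93.3% of its counts in technical replicates 1 and 2. Ezh1-209, a processed transcript of 658 nt without an annotated reading frame, held 12.8% and 7.24% of the TPM but 2.39% and 1.21% of the counts. When protein-coding transcripts alone were summed, Ezh1 had 35.1 and 36.8 TPM and Ezh2 had 12.3 and 16.3 TPM. The ratio of Ezh1 over Ezh2 was then 2.85 and 2.26, with a mean of 2.56 ± 0.417. Estimated counts divided by the longest effective length of each gene gave 2.33 and 2.12.

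The smaller gene table, which holds whole-number counts on GENCODE M4 genes, had 805 and 729 counts for Ezh1 and 367 and 385 counts for Ezh2. Divided by the gene lengths of the larger table, these counts gave ratios of 0.962 and 0.812, so that Ezh2 was the higher. Divided by the longest transcript length of each gene, a choice made after the data were seen, they gave 1.45 and 1.25. The count of the smaller table was 0.426 times that of the larger table for Ezh1 in either library, and 0.686 and 0.725 times for Ezh2. Over all genes with at least 100 counts the median of this ratio was 0.392 and 0.401. Ezh1 was thus above Ezh2 in both libraries in raw counts of both tables, while the direction per length depended on the table and on the length used.

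**Figure D2:**
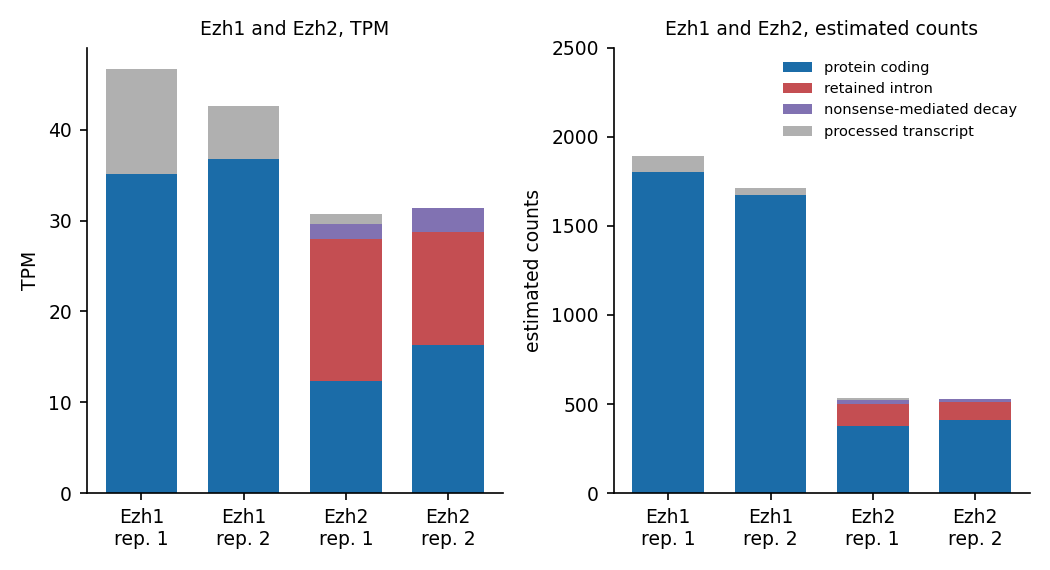
Ezh1 (left bars) and Ezh2 (right bars) in technical replicates 1 and 2, stacked by annotated transcript type, in TPM (left panel) and in estimated counts (right panel), both axes from 0. Retained-intron transcripts make up 51.0% and 39.9% of the Ezh2 TPM but 22.8% and 19.2% of its counts, and Ezh1 has none.

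**Figure D3:**
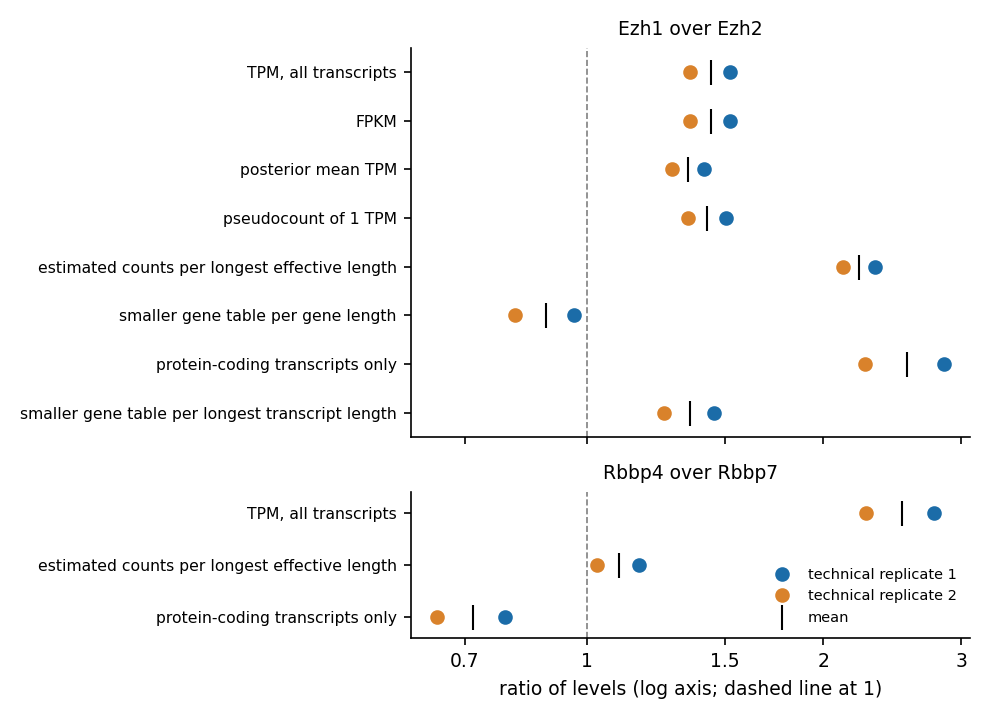
Ratio of Ezh1 over Ezh2 (upper panel) and of Rbbp4 over Rbbp7 (lower panel) on a log axis under each way of measuring the level, for technical replicate 1 (blue), technical replicate 2 (orange) and their mean (bar). Ezh1 over Ezh2 runs from a mean of 0.887 to 2.56 and lies below 1 with the smaller gene table per gene length alone.

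Ezh1 and Ezh2 shared no window of 50 nt, so a read of that length that matches without error belongs to 1 of them. Their longest identical run between the leading coding transcripts was 17 nt, near the end of the coding sequence, and is printed in capitals within an aligned stretch of 76 coding bases of which 60 were identical (78.9%). Both stretches are spliced over an intron and lie on the minus strand of mm10, Ezh1-202 within chr11:101192942-101193236 and Ezh2-201 within chr6:47530544-47531758.
Ezh1-202: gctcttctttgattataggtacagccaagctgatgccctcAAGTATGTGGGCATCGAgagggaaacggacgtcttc
Ezh2-201: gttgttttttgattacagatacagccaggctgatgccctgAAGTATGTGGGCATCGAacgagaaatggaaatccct

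The core subunits Eed and Suz12, which hold the catalytic subunit in its active form, differed in level. Eed, the subunit that binds methylated lysine 27 (ENSMUSG00000030619.9, mm10 chr7:89954654-89980983, minus strand), had 56.0 and 51.3 TPM in technical replicates 1 and 2 and a mean of 53.7 ± 3.295 TPM. Suz12, the scaffold of the complex (ENSMUSG00000017548.15, mm10 chr11:79993106-80034123, plus strand), had 25.8 and 26.7 TPM and a mean of 26.2 ± 0.62 TPM. Every Eed value was above every Suz12 value. The coding transcripts Eed-201 and Suz12-206 led in their genes, with 40.7% and 53.0% of the TPM and 67.9% and 75.7% of the counts as means of the libraries. Counting protein-coding transcripts alone left 36.5 ± 1.30 TPM for Eed and 17.0 ± 0.62 TPM for Suz12, and Suz12-203, a retained-intron transcript of 651 nt, held 27.7% and 30.6% of the Suz12 TPM.

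The histone-binding subunits Rbbp4 and Rbbp7, which also belong to other chromatin complexes such as the NuRD deacetylase, were the highest of the 10 genes. Rbbp4 (ENSMUSG00000057236.10, mm10 chr4:129307100-129335370, minus strand) had 262 and 244 TPM in technical replicates 1 and 2. Rbbp7 (ENSMUSG00000031353.13, mm10 chrX:162760402-162779092, plus strand) had 94.8 and 107.5 TPM. Rbbp4 averaged 253 ± 12.9 TPM and Rbbp7 101 ± 8.97 TPM (SD, n = 2 technical libraries), and the ratio of Rbbp4 over Rbbp7 was 2.77 and 2.27. This ratio also rested on transcript assignment. Rbbp4-203, a processed transcript of 722 nt, held 70.2% and 70.6% of the Rbbp4 TPM but 29.9% and 28.0% of its counts, while the coding Rbbp4-201 of 4407 nt held 65.2% and 68.9% of the counts. All 722 bases of Rbbp4-203 lie in exons of protein-coding Rbbp4 transcripts, and 49 of its 673 windows of 50 nt occur in no other Rbbp4 transcript. All 5 annotated Rbbp7 transcripts are protein coding, and Rbbp7-203 led with 56.2% and 60.2% of the TPM. With protein-coding transcripts alone, Rbbp4 had 74.7 and 69.3 TPM against 94.8 and 107.5 TPM for Rbbp7, a ratio of 0.787 and 0.645, so that the direction turned. These alternatives for Rbbp4 and Rbbp7 were added after the data were seen.

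Rbbp4 and Rbbp7 also shared no window of 50 nt with each other. Their longest identical run between leading coding transcripts was 20 nt, shown in capitals within 100 aligned coding bases of which 72 were identical (72.0%), to make plain how far the paralogs differ at the level of reads. The Rbbp4-201 stretch is mm10 chr4:129322757-129322856 on the minus strand, and the Rbbp7-203 stretch lies on the plus strand of mm10 within chrX:162768984-162769876, spliced over an intron.
Rbbp4-201: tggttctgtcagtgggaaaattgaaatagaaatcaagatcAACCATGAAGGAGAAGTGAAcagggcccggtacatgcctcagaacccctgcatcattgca
Rbbp7-203: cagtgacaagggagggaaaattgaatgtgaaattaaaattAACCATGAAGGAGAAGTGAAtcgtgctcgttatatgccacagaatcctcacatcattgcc

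The accessory subunits Jarid2 and Mtf2 mark alternative forms of PRC2. Jarid2, a member of the Jumonji family that guides PRC2 to chromatin together with Aebp2 (ENSMUSG00000038518.15, mm10 chr13:44729474-44921643, plus strand), had 31.25 and 41.2 TPM in technical replicates 1 and 2. Its mean of 36.2 ± 7.02 TPM had the widest relative spread of the 10 genes. Aebp2 had 30.9 and 26.2 TPM, so Jarid2 made up 50.2% and 61.1% of the TPM of the pair. Its share was 41.1% and 53.7% with protein-coding transcripts alone, and 44.9% and 53.0% in estimated counts per longest effective length, so on those scales which of them was the higher differed between the libraries. Jarid2-208, a coding transcript of 5997 nt, held 50.6% and 49.9% of the Jarid2 TPM and 82.5% and 88.5% of its counts.

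Mtf2, a Polycomb-like protein that binds unmethylated CpG-rich DNA (ENSMUSG00000029267.17, mm10 chr5:108065674-108109004, plus strand), had 39.6 and 44.5 TPM and a mean of 42.0 ± 3.43 TPM. It was the highest of the Polycomb-like genes in both libraries. Mtf2 held 74.4% ± 0.467 of their TPM, Phf1 24.3% ± 0.164 and Phf19 1.36% ± 0.302. Phf19 itself had 0.84 and 0.68 TPM, below the detection threshold. Mtf2-201 led with 34.7% and 33.6% of the Mtf2 TPM and 67.2% and 68.1% of its counts. Counting protein-coding transcripts alone left Mtf2 at 64.0% ± 2.87 of the family.

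Bmi1, the Pcgf4 protein of canonical PRC1 and a known repressor of the Cdkn2a locus (ENSMUSG00000026739.13, mm10 chr2:18677018-18686629, plus strand), was the lowest of the 10 genes in TPM over all transcripts, with 13.4 and 12.3 TPM in technical replicates 1 and 2. Within the Pcgf family Bmi1 held 13.1% ± 0.209 of the TPM. Pcgf1 with 36.8% ± 1.01 and Pcgf5 with 34.0% ± 0.335 were each above it, and Pcgf6 (7.19%), Pcgf2 (4.50%) and Pcgf3 (4.48%) were below. Genes of variant PRC1 thus lay on both sides of Bmi1, Pcgf1 and Pcgf5 above and Pcgf6 and Pcgf3 below. In estimated counts per longest effective length Bmi1 held 18.3% and 18.6% and Pcgf5 18.1% and 18.8%, so their order was not kept on that scale, while Pcgf1 stayed above both with 48.4% and 47.9%. Bmi1 exceeded its closest paralog Pcgf2 by 2.60-fold and 3.31-fold in the libraries. Of the 50 nt windows of Bmi1, 16.7% also occur on the same strand in another gene, mainly the pseudogene Gm5946, which was assigned 1.09 and 2.75 estimated counts, so the level of Bmi1 is uncertain to the extent that reads were divided between these genes. Bmi1-201 led with 61.6% and 67.5% of the Bmi1 TPM.

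Cbx7, a reader of methylated lysine 27 in canonical PRC1 (ENSMUSG00000053411.16, mm10 chr15:79915807-79971119, minus strand), had 36.2 and 33.9 TPM and a mean of 35.1 ± 1.61 TPM. In TPM it was above Cbx6, Cbx8 and Cbx2 in both libraries. Cbx7 held 73.1% ± 1.41 of the TPM summed over these and itself, followed by Cbx6 (16.2% ± 0.953), Cbx8 (9.13% ± 2.77) and Cbx2 (1.53% ± 0.409). The share of Cbx7 was 78.7% ± 0.110 with protein-coding transcripts alone and 68.5% in either library in estimated counts per longest effective length. Cbx7-203 led with 74.7% and 77.9% of the Cbx7 TPM. In the smaller gene table Cbx7 had 59 and 63 counts. This is 0.0422 and 0.0543 times its 1398 and 1160 estimated counts, the lowest such ratio of the 10 genes. Cbx8 had 74 and 43 counts in the smaller table, Cbx6 20 and 24, and Cbx2 2 and 4. By these counts, not divided by length, Cbx7 was below Cbx8 in technical replicate 1. The longest effective length was 6008 nt for Cbx7 and 3531 nt for Cbx8. Divided by these lengths, the counts of the smaller table put Cbx7 below Cbx8 in both libraries. The Cbx7 gene overlaps Apobec3, which had 379 and 391 TPM, by 100 bases on the opposite strand, and whether the counting used strand was not given in the sources used here. The part of this overlap in the difference between the tables was not tested.

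**Figure D4:**
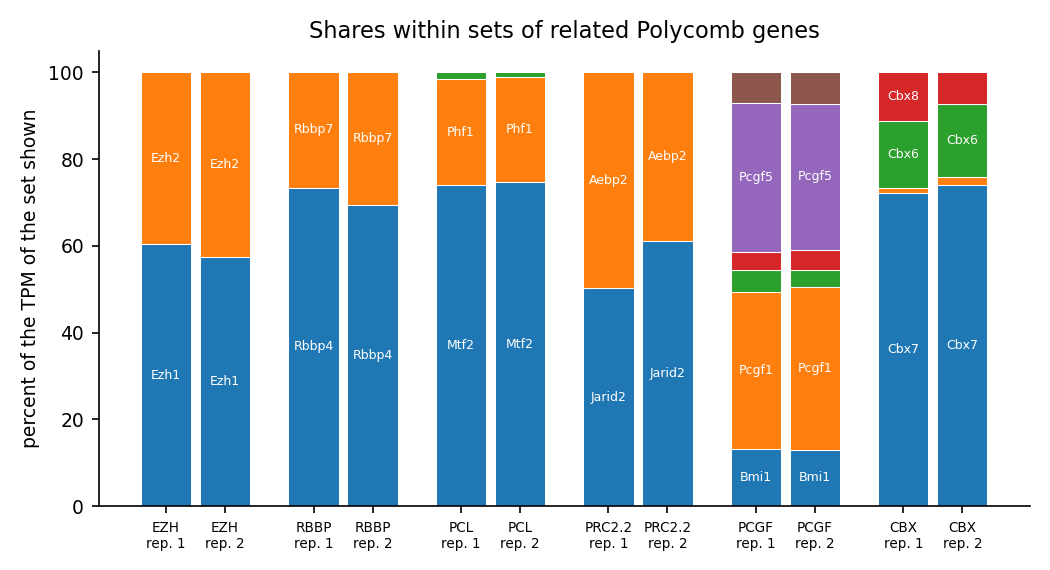
Share of the summed TPM of each set of related Polycomb genes in percent, in technical replicate 1 (left bar of each pair) and technical replicate 2 (right bar). The bottom segment is Ezh1, Rbbp4, Mtf2, Jarid2, Bmi1 or Cbx7; Mtf2 and Cbx7 hold the most of their sets and Bmi1 holds 13.1% of the Pcgf family.

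Across the 10 genes, the protein-coding share of TPM had a median of 66.5%, beside a median of 84.2% over detected protein-coding genes, whose lower and upper quartiles were 58.6% and 98.7%. It was lowest for Rbbp4 (28.4%), Ezh2 (45.9%), Jarid2 (50.8%) and Mtf2 (58.1%), all below the lower quartile. Suz12 (64.9%), Eed (68.1%), Ezh1 (80.9%) and Cbx7 (94.0%) were between the quartiles, and Bmi1 (98.7%) and Rbbp7 (100.0%) were above the upper quartile. Each of the 10 genes except Ezh1 and Bmi1 overlaps an annotated gene on the opposite strand. Besides Apobec3, the protein-coding genes of this kind that were detected were Tmed5 with Mtf2 (2639 nt, 73.0 and 84.1 TPM for Tmed5) and Txlng with Rbbp7 (174 nt, 17.6 and 20.3 TPM for Txlng).

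The libraries were compared in counts with a two-sided exact binomial test on each of 17334 genes, adjusted by the Benjamini-Hochberg method, which compares these 2 libraries and not conditions. Over all genes, 19.2% were called at an adjusted p of 0.05, 9.78% higher and 9.42% lower in technical replicate 1. Of the 10 Polycomb genes 2 were called, both lower in technical replicate 1, a share close to the background. Jarid2 had 1417 and 1517 estimated counts in technical replicates 1 and 2, a log2 ratio of -0.27 after scaling by library size (exact binomial test, adjusted p = 1.37e-05). Rbbp7 had 2105 and 2102 estimated counts, a log2 ratio of -0.17 (exact binomial test, adjusted p = 0.00155). Ezh1, with a log2 ratio of -0.03, and Ezh2, with a log2 ratio of -0.17, were not called. Neither call on Jarid2 nor that on Rbbp7 was made when the spread between the libraries was modelled as a common edgeR dispersion. That dispersion was estimated from the same 2 libraries, treated as 1 group, so the differences under test also entered their own error. Of the 5 cycling-cell markers 4 were called higher in technical replicate 1, and the part of this difference in the Polycomb values was not tested.

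The other subunits of these complexes were mostly detected. Of 7 further PRC2 accessory genes 4 were detected, led by Aebp2 (28.6 TPM), Phf1 (13.7 TPM) and Lcorl (13.1 TPM), while Phf19, Epop (0.36 and 0.32 TPM) and Ezhip (no read), an inhibitor of PRC2, were below the threshold. With protein-coding transcripts alone Lcorl had 6.51 and 5.9 TPM, below Lcor with 11.23 and 12.4 TPM. Of 11 further canonical PRC1 genes 10 were detected. Rnf2, the ubiquitin ligase, was the highest of them at 80.5 TPM and stood 36.6 ± 3.06-fold above its paralog Ring1. Scml4 had 36.5 TPM and Phc3 32.7 TPM, and Cbx2 was below the threshold with 0.62 and 0.83 TPM. Of 17 variant PRC1 genes 16 were detected, led by Usp7 (37.5 TPM), Pcgf1 (36.0 TPM) and Pcgf5 (33.3 TPM), with Auts2 at 0.05 and 0.32 TPM. Usp7 did not lead with protein-coding transcripts alone. It then had 3.39 and 6.1 TPM, against 26.75 and 24.46 TPM for Pcgf1 and 23.25 and 19.32 TPM for Pcgf5. Between the technical libraries, 3 of 6 tested accessory genes, 1 of 11 canonical and 2 of 17 variant PRC1 genes were called, beside the 19.2% over all genes.

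Genes that oppose Polycomb were also mostly detected. Both lysine 27 demethylases were present, Kdm6b with 29.6 and 30.6 TPM and Kdm6a with 22.8 and 25.2 TPM. In TPM Kdm6b was thus above Kdm6a in both libraries. The direction turned in the counts of the smaller gene table, 101 and 114 for Kdm6b against 508 and 506 for Kdm6a. Of 11 genes of the H2A deubiquitinase complex, which removes the PRC1 mark, 10 were detected, led by Ogt (132 TPM), Asxl2 (39.5 TPM) and Hcfc1 (26.0 TPM), while Asxl3 had 0.31 and 0.21 TPM. All 12 genes of the trithorax list, which holds methyltransferases of histone H3 lysine 4, their partner subunits and Ash1l, a methyltransferase of histone H3 lysine 36, were detected, led by Dpy30 (108 TPM), Ash1l (31.1 TPM) and Kmt2a (27.9 TPM). With protein-coding transcripts alone Ash1l had 22.82 and 22.9 TPM, below Kmt2a with 28.69 and 26.9 TPM. None of the 2 demethylases, 3 of 11 deubiquitinase genes and 1 of 12 trithorax genes were called between the technical libraries, beside the 19.2% over all genes.

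Genes known as Polycomb targets in development were at or near 0. None of 20 developmental regulators, among them Cdkn2a, Gata4 and Pax6, reached 1 TPM in both libraries, and 16 of them had no read. The highest was Pax6 with 0.15 and 0.22 TPM. Of 39 Hox cluster genes 1 was detected, Hoxb4 with 1.15 and 1.05 TPM, and 25 had no read. These counts describe the genes in a single condition, and no measurement of histone methylation was analysed here.

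**Figure D5:**
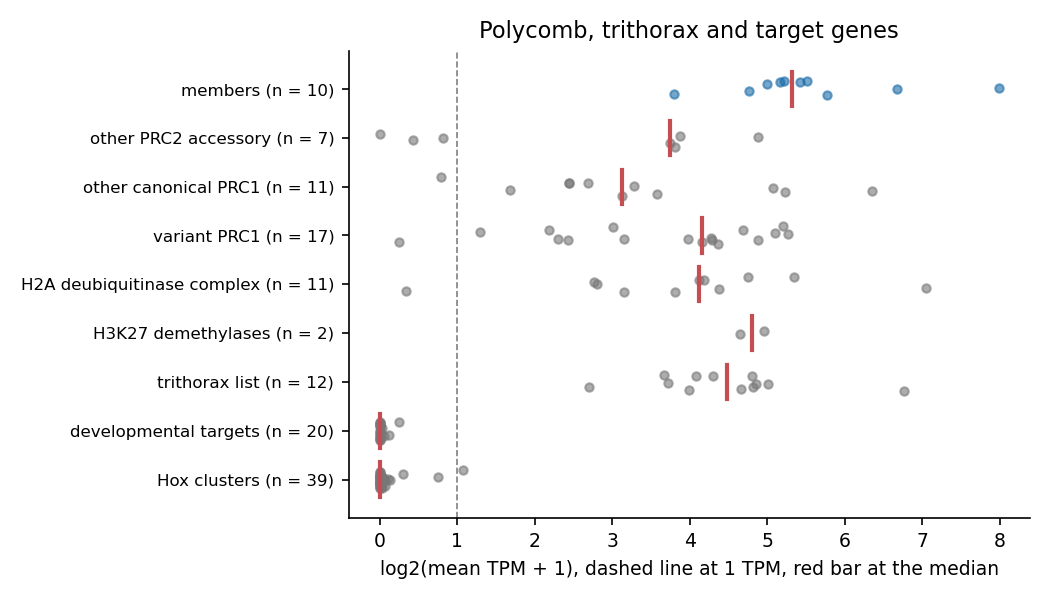
Mean level over both technical libraries on the scale log2(mean TPM + 1) of each gene of the 10 Polycomb genes (blue), of the lists of related genes and of target genes (grey), with the median of each list as a red bar and 1 TPM as a dashed line. The 10 Polycomb genes all lie to the right of the line, and all developmental and Hox genes except Hoxb4 lie to its left.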

How the data were processed

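Per the file headers and the text deposited with each library, the authors made a larger gene table and a transcript table of GENCODE M21 on mm10, with estimated counts, TPM, FPKM, posterior mean TPM with credibility bounds (a signal whose sum is not fixed) and, per transcript, the percent of a gene's TPM. The authors also deposited a smaller gene table of whole-number counts on GENCODE M4. Which aligner, quantifier, counter and strand setting they used is not given in the sources used here.

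A listed gene is not reported here and enters no list or share. The 10 genes, the 18 gene lists and their rules were chosen with earlier results of these data known. All 10 genes are named; of each other list, the 3 highest by mean TPM and the genes below 1 TPM are named (where more than 6 were below, their number). Leading transcripts by TPM and by counts are named, and for Ezh1 and Ezh2 those with at least 10% of either. Other transcripts, paralogs, overlapping genes and target genes were named after their values were seen. The exact binomial test between the libraries used estimated counts after rounding, with at least 10 summed counts and TMM effective library sizes (edgeR 4.0.16). DESeq2 1.42.0 size factors were an alternative. The test was checked on simulated data. edgeR's quasi-likelihood test could not be used, because 1 library against 1 leaves no residual degrees of freedom. Depth was 15386113 and 13604480 gene counts in technical replicates 1 and 2, and 3581589 and 3271045 in the smaller table. Sequences were read from GENCODE M21 transcripts on mm10 with Python 3.11.15. No table of protein sequences was used here.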

Additional observations from a re-analysis of the deposited data

How the results depend on the processing

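The mean ratio of Ezh1 over Ezh2, 1.44 in TPM, was 1.44 in FPKM, 1.35 in posterior mean TPM and 1.42 with 1 TPM added to both genes, and ran from 1.36 to 1.52 when either library was left out. It was 2.22 in estimated counts per longest effective length, 2.56 in protein-coding transcripts alone, and 0.887, with the direction turned, in the smaller table per gene length. The mean ratio of Rbbp4 over Rbbp7, 2.52 in TPM and 2.27 to 2.77 with either library left out, was 1.10 per longest effective length and 0.716, with the direction turned, in protein-coding transcripts alone. The lengths and transcripts that enter these ratios differ by construction; which ratio is nearer to the RNA in the cells was not tested. All 10 genes were detected at 0.5, 1, 5 and 10 TPM, in FPKM, and with either library left out. Over all genes, 3328, 3316 and 3374 of 17334 were called between the technical libraries with TMM, total counts and DESeq2 size factors. The numbers were 2802 of 29305 without a filter on low counts, 729 of 11019 with the smaller gene table and 312 of 17334 with edgeR's common dispersion. Of the 10 genes, 2 differed between the technical libraries with TMM, total counts, DESeq2 size factors or no filter on low counts. With the smaller gene table this was 1 gene (Jarid2, exact binomial test, adjusted p = 0.0284). With edgeR's common dispersion it was 0, and 0 at an unadjusted p under 0.05 (Jarid2 adjusted p = 0.938); the range for Jarid2 over all alternatives was 1.29e-05 to 0.938. No paired analysis was possible because there was 1 group. Depth limits the shares of single transcripts, since Ezh2-213 rested on 71.7 and 45.2 estimated counts and Ezh1-209 on 45.1 and 20.6.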

Other observations

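The smaller gene table was not a scaled copy of the larger one. Its highest count per base of the longest transcript was 2.02 and 1.96 in technical replicates 1 and 2, against 194 and 165 in the larger table, over 22159 genes. Among the 10 Polycomb genes, the count of the smaller table was between 0.0422 times that of the larger (Cbx7, technical replicate 1) and 0.725 times (Ezh2, technical replicate 2). Bmi1 had ratios of 0.161 and 0.157, Suz12 0.294 and 0.287, Rbbp4 0.333 and 0.352, and Eed 0.634 and 0.674. How the smaller table was counted was not given in the sources used here, and the part of this difference in the ratio of Ezh1 over Ezh2 was not tested.

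The transcripts named here, all short and without a full reading frame, held a larger share of TPM than of counts, as some transcripts not named here also did. They were Ezh2-213, Rbbp4-203, Ezh1-209, Suz12-203 and Jarid2-206, with lengths from 500 to 722 nt. Jarid2-206, an annotated target of nonsense-mediated decay of 670 nt, held 25.3% and 24.6% of the Jarid2 TPM from 61.0 and 69.2 estimated counts. In Ezh1-209 468 of 658 bases and in Suz12-203 470 of 651 bases lie outside the exons of protein-coding transcripts, whereas in Rbbp4-203 and Jarid2-206 none do. These transcripts were chosen after their values were seen.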
